A study of Mus musculus with 14 samples.

Results

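The brains of mice without miR-34a were compared with the brains of control mice on 6 arrays, which are 6 of the 14 hybridisations of a study of brain and thymus. The arrays were chosen by their titles, and no measured value entered the choice. Each of 3 mutant mice, male, C57BL/6, 17 weeks old and labelled mir-34a minus, gave brain RNA for 2 spotted cDNA arrays on which the dyes were exchanged. In 1 array of a mouse the mutant cDNA carried Cy5 and in its partner Cy3. The second channel always held a pool of wild-type control brain RNA from male C57BL/6 mice of the same age. The labels list 4 animals in the pool, while the labelling protocol speaks of 6. How the allele was made is not given in the labels. No control mouse was hybridised alone, so the pool is 1 control sample and the spread among control mice enters no test. All ratios are log2 of mutant over pool, a positive value meaning more signal from the mutant, with the direction taken from the labelled dyes. Each ratio of a mouse is the mean of its dye-swapped arrays, and ± gives the SD over 3 mice unless another number is given.

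miR-34a is a microRNA that p53 induces. It pairs through its seed with sites in many mRNAs and lowers their stability or translation, and its best known targets act in the cell cycle, in apoptosis and in Notch, Wnt and growth factor signalling. In the brain it has been tied to neuronal differentiation and ageing. A mouse that lacks it would keep other microRNAs with the same seed. Those found in the RefSeq table used, which may not be all of them, are shown here because they can bind the same sites.

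The mature sequences below, from RefSeq on GRCm38.p6, run 5′ to 3′, with bases 2 to 8, the seed, in capitals.
miR-34a-5p: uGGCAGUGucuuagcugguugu
miR-34b-5p: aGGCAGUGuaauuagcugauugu
miR-449a-5p: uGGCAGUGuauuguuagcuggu
miR-449c-5p: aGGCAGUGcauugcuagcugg
miR-34a-3p: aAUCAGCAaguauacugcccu
The arm named 5p of miR-34a lies on the plus strand at chr4:150068473-150068494. Of 1738 mature mouse microRNAs in the table used, which is not complete, 4 carry its seed, and those other than miR-34a come from chromosomes 9 and 13. The 3p arm of miR-34a has another seed. No probe on the array was named Mir34a, so these arrays hold no reading of the microRNA.

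The arrays held 20160 probes, and gene symbols were available for 1453 of them, which stood for 1380 genes. A probe was tested where its signal lay above background on at least 0.5 of the brain arrays and at least 2 mice gave a ratio. This left 17591 probes, among them 1209 named genes, each represented by its brightest probe. Of the rest, 2220 probes were too dim and 349 had values in too few mice. The share of probes detected on an array ran from 56.3% to 94.4%, the median spot was 1.45 to 2.36 times its background in Cy5 and 1.81 to 2.25 times in Cy3, and 0.812% to 10.7% of spots were flagged by the scanner software. The number of mice limits the precision of every ratio.

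The label brain was set against markers by comparing the log2 spot intensities of the brain hybridisations with those of the thymus hybridisations of 4 mutant mice from the same study. Of 17109 probes, 21 (0.123%) were brighter in brain and 1 (0.00584%) in thymus at a limma adjusted p under 0.05. The probes were filtered by detection on the brain arrays only. Probes bright in thymus but dim in brain were thus left out, and counts by organ here favour brain. Stmn2, a tubulin-binding protein of neurons, had a log2 intensity of 8.83 ± 0.35 in brain (SD, n = 3) and 6.75 ± 0.08 in thymus (SD, n = 4), and it was past the threshold. A dimmer probe of Stmn2 had 7.56 ± 0.45 in brain and 7.04 ± 0.45 in thymus and was not. Of the 6 neuron markers tested, 5 had the higher mean in brain, and Stmn2 was the only marker of that list past the threshold. Other lists were more mixed. The mean was higher in brain for 4 of 7 synaptic vesicle genes, 3 of 5 neurotransmitter receptors and 1 of 3 lymphocyte markers, none past the threshold. It was higher in brain for 5 of 12 ion channels, 3 of 4 oligodendrocyte genes and 2 of 3 cerebellar markers, also none past it. Ntsr2 of astrocytes and Reln of GABA-releasing neurons, each the single tested marker of its list, did not have the higher mean in brain. Pcp4, a calmodulin-binding peptide abundant in Purkinje cells, had 8.47 ± 0.68 in brain (SD, n = 3) and 6.06 ± 0.02 in thymus (SD, n = 2), with a limma adjusted p of 0.080. Satb1, a nuclear matrix protein of thymocytes, had 6.86 ± 0.04 in brain and 8.25 ± 0.45 in thymus (adjusted p = 0.13). Ccdc43, a gene with little described function, was the other named gene past the threshold, with 10.4 ± 0.5 in brain and 7.43 ± 0.31 in thymus. Markers of monoamine and acetylcholine neurons and of red blood cells had no named probe, so neither group could be examined.

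No probe differed between mutant brains and the control pool at a limma adjusted p under 0.05, which is 0% of 17591. The smallest adjusted p was 0.845. An unadjusted p under 0.05 was reached by 783 probes, or 4.45%, of which 471 had ratios above 0 and 312 below. Among the named genes 56 of 1209, or 4.63%, were at an unadjusted p under 0.05. The ratios were centred near 0, with 8878 probes above and 8713 below, a median of 0.0009 and a central 95% from -0.19 to 0.19.

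The intervals show what size of difference from the control pool used here these arrays leave room for. They hold the spread among the mutant mice only. The spread among control mice and any error of the pool are not in them, so they do not bound the difference between genotypes. The 95% interval of limma's moderated test was ± 0.16 on the log2 scale for the median probe, and for 97.1% of probes it lay wholly inside a 1.5-fold change in either direction. For the named genes the share was 97.4%, or 1178 of 1209. These intervals rest on background-corrected signal with an offset of 50, which draws the ratios of dim spots toward 0, so a larger change of a weakly expressed gene may appear as a smaller ratio.

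Known targets of miR-34a were followed from a list of 56 published direct targets, of which 10 had a named probe and 9 were tested. None was past the threshold, against 0% of all tested probes. The ratio was above 0 for 5 and below 0 for 4, with a median of 0.02, and the median over all tested probes was 0.0009. The median changed sign with the foreground median, with print-tip loess, with each dye orientation alone and without mouse 1 or mouse 2, so no direction can be given for the list. The 95% intervals of all 9 targets lay inside 1.5-fold, from -0.30 at the lowest bound to 0.36 at the highest.

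Efnb1, the membrane-bound ligand ephrin-B1, had the highest ratio of the targets. It stood at 0.05, 0.37 and 0.10 in mice 1, 2 and 3, a mean of 0.17 ± 0.17 with an interval from -0.01 to 0.36. The value of mouse 2 came from the array with the mutant in Cy3, at 0.76, while its partner array gave -0.03. With foreground medians or in the authors' value table the mean of Efnb1 was below 0. Ldha, the muscle-type subunit of lactate dehydrogenase, followed with 0.13, 0.23 and 0.02 in the 3 mice and a mean of 0.13 ± 0.11. All of its arrays with the mutant in Cy5 were above 0 (0.35, 0.34 and 0.19), and those with the mutant in Cy3 stood at -0.10, 0.13 and -0.14.

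At the low end stood Klf4, a zinc finger factor that restrains proliferation, with -0.22, -0.09 and -0.04 in mice 1, 2 and 3 and a mean of -0.12 ± 0.09 (interval -0.27 to 0.03). On 5 of its 6 arrays the ratio was below 0. Gas1, a coreceptor for Sonic hedgehog, had a mean of -0.11 ± 0.16, with mouse 1 at 0.06 and mice 2 and 3 at -0.24 and -0.16. The middle of the list was close to 0. Mdm4, an inhibitor of p53, had -0.04 ± 0.06 and Src, a tyrosine kinase, -0.01 ± 0.11. Syt1, the calcium sensor of synaptic vesicles, had 0.02 ± 0.06. Mta2, a subunit of a histone deacetylase complex, had 0.03 ± 0.17. Csf1r, the receptor that maintains microglia, had 0.02 ± 0.23 and the widest spread of the 9, with 0.26 in mouse 1 and -0.19 in mouse 2.

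Of 31 genes near Mir34a on chromosome 4, 5 were tested, and none was past the threshold. Ctnnbip1, an inhibitor of beta-catenin, had the highest ratio, with 0.18, 0.21 and 0.43 in mice 1, 2 and 3 and a mean of 0.27 ± 0.14 (interval 0.10 to 0.44, limma's adjusted p = 0.845). All 3 mice lay above 0, but the arrays did not: with the mutant in Cy3 they gave 0.06, -0.23 and 0.98, and with the mutant in Cy5 0.30, 0.65 and -0.13. Park7, the redox-sensitive protein DJ-1, had 0.09 ± 0.03. Pex14, a peroxisomal import factor, had 0.05 ± 0.03. Ube4b, a ubiquitin ligase, was measured in 2 mice, at 0.04 in mouse 1 and -0.03 in mouse 3. Camta1, a transcription factor of neurons, had -0.02 ± 0.14. Across all of chromosome 4, 48 of 90 named genes had ratios above 0, the median was 0.01, and 7 were at an unadjusted p under 0.05. Over all named genes 56 of 1209, or 4.63%, were at that p. On chromosome 10 it was 6 of 61 and on chromosome 13 it was 4 of 41, so the count is not particular to chromosome 4. Medians of the other autosomes lay between -0.03 (chromosome 18) and 0.03 (chromosome 15).

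**Figure D1:**
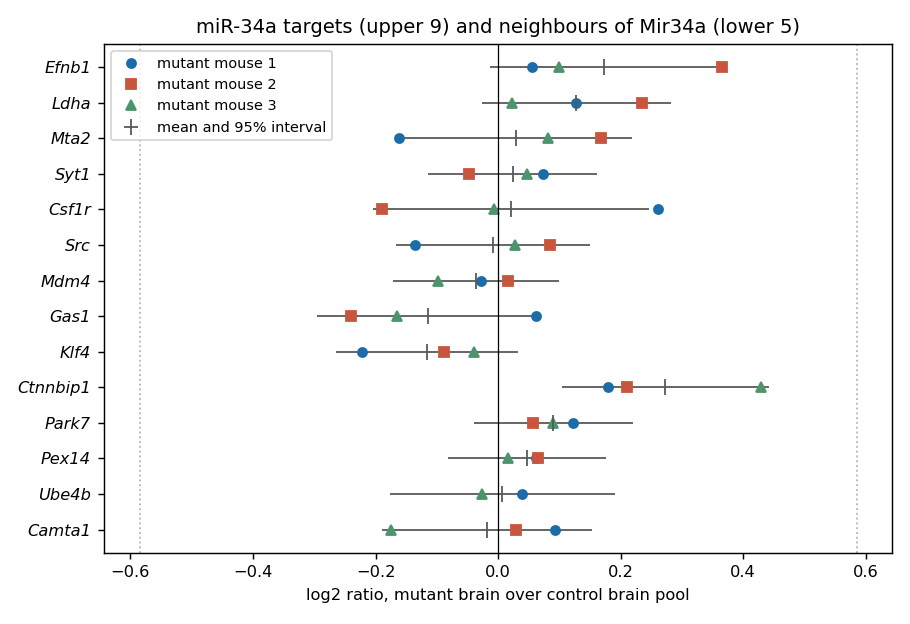
Log2 ratio of mutant brain over control brain pool for the 9 tested miR-34a targets (above) and the 5 tested genes near Mir34a (below); symbols are the 3 mice, vertical ticks the means with 95% intervals from limma, and dotted lines mark 1.5-fold. Every interval lies inside the dotted lines, and the mice lie on both sides of 0 for 8 of the 14 genes.

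Genes were then named by their place at either end of the ratios. Of 397 named genes that were detected and measured on all 6 arrays, 61 had the same sign in all 3 mice and in the mean of each dye orientation, 38 of them above 0 and 23 below. The 12 with the highest and the 12 with the lowest ratios are described. None passed the threshold, and neighbours in this order differ by less than the spread between mice.

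Among the 12 highest, Ccnh, the cyclin of the kinase complex that activates other cyclin-dependent kinases, had 0.10, 0.33 and 0.27 in mice 1, 2 and 3 and a mean of 0.23 ± 0.12. On its 3 arrays with the mutant in Cy5 the ratio was above 0, and on 2 of the 3 with the mutant in Cy3 below. Pcp4 had 0.33, 0.07 and 0.27 and a mean of 0.22 ± 0.14, with 5 of 6 arrays above 0. Fkbp3, a nuclear immunophilin, and Smarcd2, a subunit of the SWI/SNF chromatin remodeller, were the most even of the group. Fkbp3 stood at 0.17, 0.20 and 0.15 in the 3 mice, a mean of 0.17 ± 0.02, and above 0 on all 6 arrays. Smarcd2 stood at 0.16, 0.15 and 0.13, a mean of 0.15 ± 0.02, with 2 of its arrays with the mutant in Cy3 at -0.01.

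Others of the 12 rested on 1 mouse. Tmod1, which caps the slow end of actin filaments, had 0.61 in mouse 1 against 0.03 and 0.02 in mice 2 and 3, and 1 array of mouse 1 gave 1.37. Cct5, a subunit of the cytosolic chaperonin, had 0.46 in mouse 2, with 1 array at 0.99. The remaining members were Ergic1 of the early secretory route (0.18 ± 0.11), Amd2 of polyamine synthesis (0.17 ± 0.11), Fto, an RNA demethylase (0.15 ± 0.09, and -0.03 at a dimmer probe), Idh3g, a subunit of mitochondrial isocitrate dehydrogenase (0.15 ± 0.11), and Prdx6, a peroxiredoxin (0.14 ± 0.13). Efnb1, described above, is the last of the group.

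Among the 12 lowest, Rilpl1, a Rab-binding protein of the centrosome and cilium, was below 0 on all 6 arrays. Its mice stood at -0.09, -0.37 and -0.24, a mean of -0.23 ± 0.14 with an interval from -0.40 to -0.06 (limma's adjusted p = 0.845). Acan, the core protein of aggrecan in perineuronal nets, was also below 0 on all 6 arrays, with a mean of -0.11 ± 0.04. Ccdc43 was below 0 on 5 arrays, with -0.17, -0.17 and -0.02 in the mice and a mean of -0.12 ± 0.09, though above 0 in the authors' value table. Cep295nl, a centrosomal protein, had the lowest mean of the group, -0.34 ± 0.40, and 1 array of mouse 3 gave -1.42 while the other 5 lay between -0.30 and -0.0028.

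The rest of this group covered several functions. Pcolce, which aids the trimming of procollagen, had -0.19 ± 0.17, and Uhrf2, which reads hydroxymethylated DNA, had -0.18 ± 0.11. Apof, an apolipoprotein, had -0.17 ± 0.11, and Mcpt8, a protease of basophils, -0.15 ± 0.05. Klf4 is also in this group, beside Golga7b (-0.11 ± 0.05), which assists protein palmitoylation, Kazald1 (-0.11 ± 0.04) and 1700013G24Rik (-0.20 ± 0.11).

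**Figure D2:**
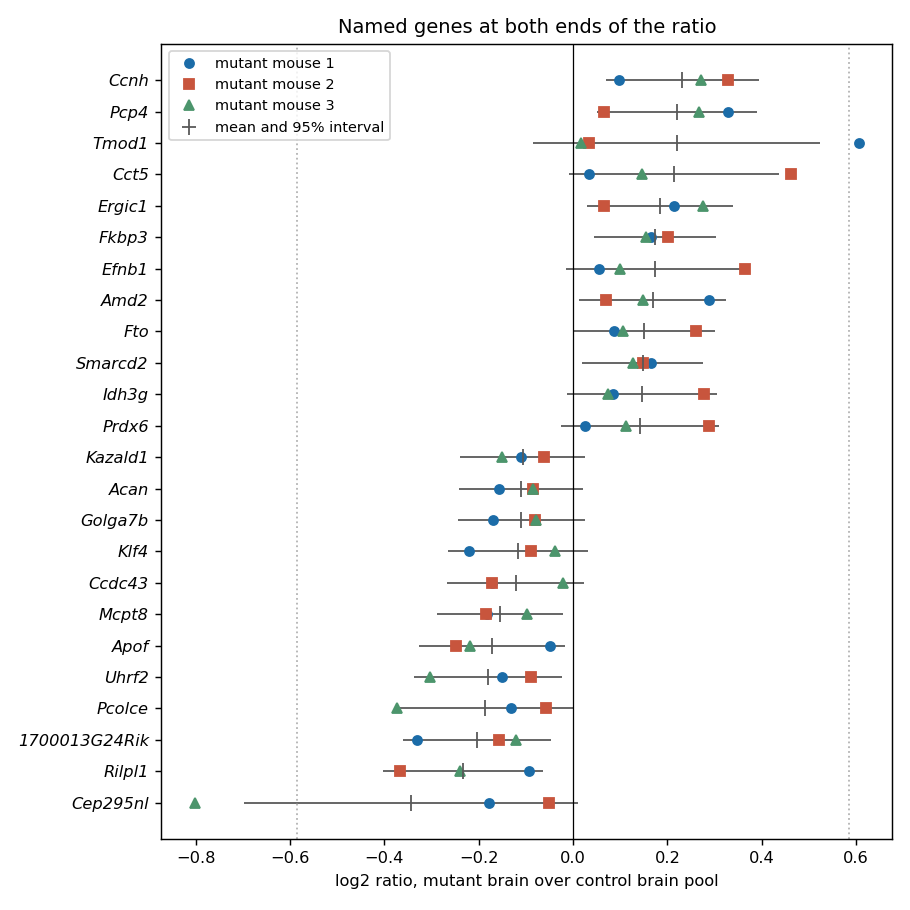
Log2 ratio of mutant brain over control brain pool for the 12 named genes with the highest and the 12 with the lowest ratios among those of 1 sign in all mice and dye orientations; symbols are the 3 mice, ticks the means with 95% intervals from limma, and dotted lines mark 1.5-fold. Fkbp3 and Smarcd2 show the closest mice, and Tmod1 and Cep295nl each have 1 mouse far from the other two.

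Neuronal genes were taken first among the lists of cell types. Of 6 tested neuron markers, 5 had ratios above 0, none passed the threshold, and the median was 0.09, which was below 0 with arrays of the mutant in Cy3 alone. Slc17a7, the vesicular glutamate transporter, had 0.11, 0.02 and 0.27 in the mice and a mean of 0.13 ± 0.12. Nsg2, an endosomal protein of neurons, had 0.13 ± 0.19, Stmn2 0.10 ± 0.06 and Sncb, beta-synuclein, 0.08 ± 0.02. Camk2b, a calcium-dependent kinase of synapses, was the member below 0, at -0.09 ± 0.09.

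All 7 tested genes of synaptic vesicles had mean ratios above 0, with a median of 0.05, and none passed the threshold. Nsf, the ATPase that takes apart fusion complexes, had 0.10, 0.14 and 0.16 in the 3 mice, a mean of 0.13 ± 0.03. With the mutant in Cy5 its arrays gave 0.14, 0.39 and 0.42, and with the mutant in Cy3 0.05, -0.11 and -0.11. Syp, the vesicle protein synaptophysin, had 0.13 ± 0.05 and was above 0 on 5 of 6 arrays. Sh3gl2 (0.05 ± 0.06), Syngr1 (0.04 ± 0.18), Syn1 (0.04 ± 0.15) and Syt1 lay closer to 0. The median of the list was 0.22 over arrays with the mutant in Cy5 and 0.02 over those with the mutant in Cy3, and it was above 0 under all 17 alternatives run on it. The alternatives reuse the same arrays, so the kept sign is not independent support. Of the neurotransmitter receptors 5 were tested, among them Grin2b of the NMDA receptor (0.01 ± 0.11) and Drd2, a dopamine receptor (0.11 ± 0.33), and 2 were above 0. Of 13 ion channel genes 7 were above 0, the highest being Kcnip3, a partner of potassium channels measured in 2 mice (0.21 ± 0.04).

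Glial, vascular and immune markers were few on the array. Fcgr2b, an inhibitory receptor for immunoglobulin, had the smallest p of all named genes, with 0.28, 0.20 and 0.25 in mice 1, 2 and 3 and a mean of 0.24 ± 0.04 (limma's adjusted p = 0.845). Its arrays with the mutant in Cy5 gave 0.58, 0.79 and 0.34, while those with the mutant in Cy3 gave -0.02, -0.38 and 0.16. It was the highest of 5 markers of microglia and macrophages, all with means above 0, whose median was 0.03. The complement gene C1qa had 0.09 ± 0.20. Of 4 oligodendrocyte genes 3 were above 0, from Tppp, a tubulin-binding protein of myelinating cells (0.13 ± 0.10), to Olig2, a lineage factor (-0.01 ± 0.20). Ntsr2 was the single astrocyte marker tested. The endothelial genes Eng (-0.14 ± 0.12) and Vwf (0.06 ± 0.08, 2 mice) lay on either side of 0. None of these genes passed the threshold.

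Of the lists with at least 5 tested genes, that of meninges and extracellular matrix had the lowest median, -0.11, with 5 of 6 tested members below 0 and none past the threshold. Mmp2, a gelatinase, had -0.12, -0.20 and -0.12 in the mice and a mean of -0.15 ± 0.05. Mmp8, a collagenase of neutrophils, had -0.11 ± 0.05, Cxcl12, a chemokine of meninges, -0.10 ± 0.15, and Mgp, matrix Gla protein, -0.01 ± 0.07. Timp3, an inhibitor of metalloproteinases, stood apart at 0.37 ± 0.32, and 1 array of mouse 1 gave 1.58. A dimmer probe of Timp3 had a mean ratio of -0.02. The median was below 0 under all 17 alternatives run on this list, which reuse the same arrays and give no independent support. No decrease is established for this list, and in bulk samples a change in cell number and a change in RNA per cell could not be told apart.

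Genes that p53 or miR-34a act on in other cells gave small numbers of probes. Of 6 cell cycle genes, 2 were above 0, from Rbl2, a pocket protein (0.09 ± 0.06), to Gmnn, the replication inhibitor geminin (-0.12 ± 0.23). Both tested p53 targets were below 0, Perp, a desmosomal protein, at -0.14 ± 0.16 and Phlda3, a repressor of Akt, at -0.01 ± 0.15. Of the apoptosis genes, Mcl1, a survival protein, had -0.12, -0.11 and -0.10 in the 3 mice, a mean of -0.11 ± 0.01, with 2 of its 6 arrays above 0. Birc2, an inhibitor of caspases, had 0.11 ± 0.04. Of the autophagy genes Gabarapl1 and Map1lc3b, which are named here because their p-values were among the smallest, the means were 0.22 ± 0.04 and 0.18 ± 0.07. Each was above 0 on its 3 arrays with the mutant in Cy5 and below 0 on its 3 arrays with the mutant in Cy3.

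Housekeeping groups were examined in the same way. All 6 ribosomal protein genes had means above 0, with a median of 0.09, made up of 0.27 over arrays with the mutant in Cy5 and -0.05 over arrays with the mutant in Cy3. Rpl6 was the highest at 0.20 ± 0.21 and Rpl8 the lowest at 0.06 ± 0.12. Of the 5 chaperones tested, 4 were above 0 with a median of 0.12. Hsp90b1, the endoplasmic reticulum form of Hsp90, had 0.26, 0.15 and 0.13 in the mice (mean 0.18 ± 0.07), and Dnajb1, a cochaperone, had -0.11 ± 0.10. Over the arrays with the mutant in Cy3 alone the mean of Hsp90b1 was -0.03. Of 16 genes of the proteasome and ubiquitin system 12 were above 0, with a median of 0.05. Of 23 genes of RNA helicases and splicing 14 were above 0, and Srsf4, a splicing factor, had -0.78 ± 1.23 because 1 array of mouse 3 read -4.30 while the other 5 read -0.28 to 0.03. The 27 kinases and phosphatases had 17 above 0 and the 22 solute carriers 11, with medians of 0.01 and -0.01. No member of any of the 41 lists passed the threshold.

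**Figure D3:**
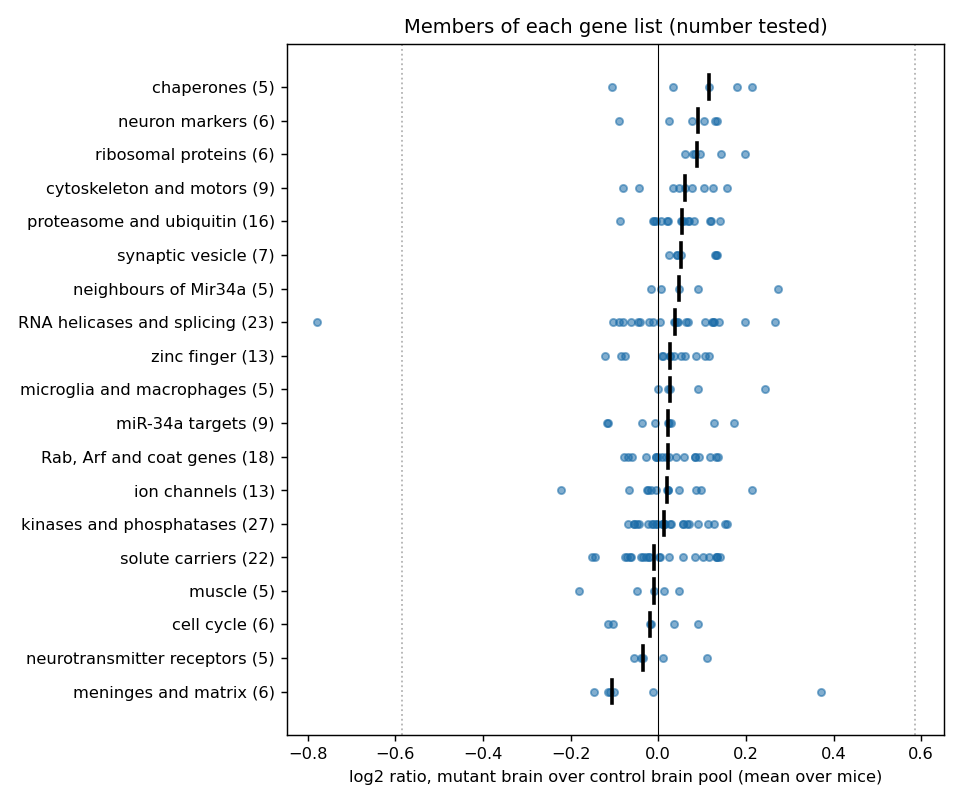
Mean log2 ratio of mutant brain over control brain pool for the tested members of each gene list with at least 5 of them (number in brackets); points are genes, black bars the list medians, and dotted lines mark 1.5-fold. Medians run from -0.11 for meninges and matrix to 0.12 for chaperones, and Srsf4 at -0.78 is the only point outside the dotted lines.

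Across probes the dye effect spread more widely than the ratio of mutant over pool. A dye effect was computed for each mouse as 0.5 times the difference between its array with the mutant in Cy5 and its array with the mutant in Cy3, and a positive value means that Cy5 was the brighter channel for that probe whichever RNA it carried. The SD across probes was 0.18 for the dye effect and 0.11 for the ratio, and the dye effect was larger in size than the ratio for 69.1% of probes. The dye effect passed a limma adjusted p under 0.05 for 2 of 17591 probes (0.0114%), and 2297 probes, or 13.1%, were at an unadjusted p under 0.05. Both probes are without a gene name, and MG-3-33j5 was the clearer one. Its ratio read 1.32, 1.53 and 1.72 with the mutant in Cy3 and -1.91, -1.53 and -1.86 with the mutant in Cy5. The mouse means (-0.30, 0.0024 and -0.071) were smaller in size than any of these array values. Among named genes Nfkbia, the inhibitor of NF-kappaB, had a dye effect of -0.81 ± 0.15, with ratios of 0.49, 0.95 and 0.72 in Cy3 and of -0.79, -0.80 and -1.13 in Cy5. Its mean ratio of mutant over pool was -0.09 ± 0.15. Clec11a, a growth factor of bone marrow (-0.76 ± 0.74), was also among the 4 lowest dye effects. At the other end stood Nsg2 (0.49 ± 0.27) and Timp3 (0.47 ± 0.33). Averaging the arrays of a mouse removes a dye effect only where it is the same on both. The part of the dye in the ratios of single genes and in the list medians was not tested.

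The agreement between arrays followed the same pattern. Across probes, ratios turned to mutant over pool correlated between the dye-swapped arrays of the same mouse, which hold the same RNA extracts, at r = -0.24, -0.33 and -0.34. If the dyes of 1 array of each pair had been recorded the wrong way round, both its arrays would in truth share 1 orientation. What is called here the ratio would then cancel toward 0. What is called the dye effect would hold the ratio and the dye effect mixed. From the ratios alone these cases cannot be told apart, and whether the dyes were recorded correctly was not tested. Arrays of different mice with the same dye orientation correlated at 0.08 to 0.33, and arrays of different mice with opposite orientation at -0.26 to -0.09. The means of the 3 mice correlated with one another at 0.06, 0.03 and 0.002, and their dye effects at 0.37, 0.15 and 0.16. Probes share arrays, pool and print, so these values describe the arrays and carry no p. The correlation between the arrays of a mouse was below 0 in each of 4 equal bins of probe intensity, with means of -0.38, -0.39, -0.34 and -0.20 from the dimmest to the brightest. The share of probes at an unadjusted p under 0.05 in these bins was 2.73%, 3.75%, 4.66% and 6.66%.

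**Figure D4:**
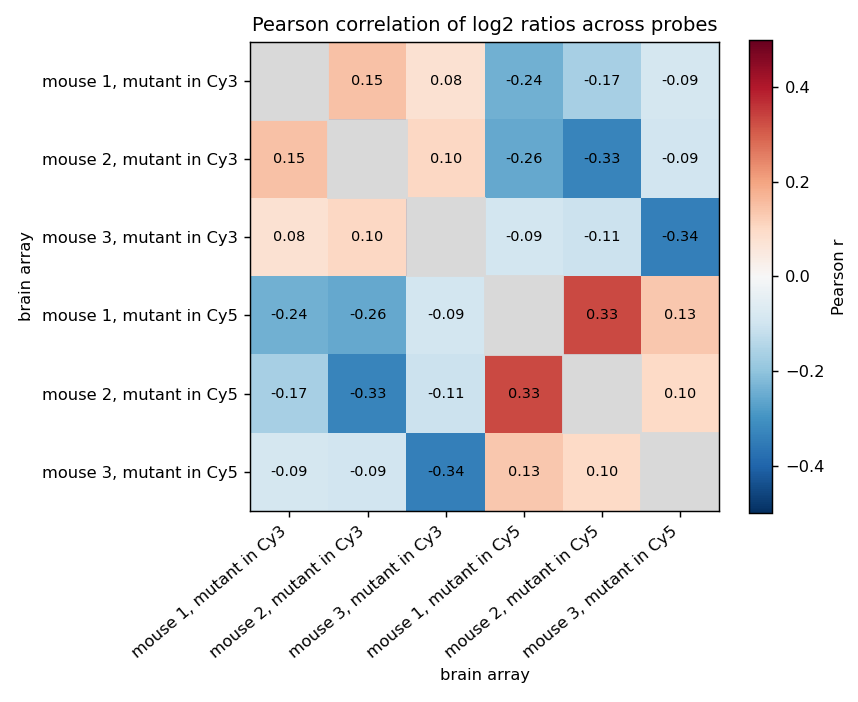
Pearson correlation across 17591 probes between the 6 brain arrays, with ratios turned to mutant over pool and arrays ordered by dye orientation. Values within an orientation run from 0.08 to 0.33 and all values between orientations are below 0, including those of the same mouse.

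The sign of a ratio was shared by all 3 mice for 4361 of 15608 probes measured in each of them, or 27.9%. It was shared by all 6 arrays for 224 probes, or 1.44%. The sign of the dye, by contrast, was the same on all 6 arrays for 2277 probes, or 14.6%. Where several probes stood for the same gene, 24 of 52 pairs had ratios of the same sign. Of pairs of probes with the same accession, 72 of 132, or 54.5%, did. All mice were read against the same pool, so their signs are not independent, and these shares are a description without a test.

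Large ratios came mostly from single arrays. A mean ratio beyond 1.5-fold was found for 98 probes, 53 above and 45 below, and beyond 2-fold for 5 above and 4 below. In 94 of the 98, at least 1 array was beyond 4-fold, and for 83 the median of the arrays lay within 0.2 of 0. In 94 of the 98 the array with the largest ratio had Cy3 as the brighter channel, and 94 had a dye effect below 0, compared with 52.2% of all tested probes. The dye effect is computed from these same arrays, so the second count largely follows from the first and is not a separate observation. When the foreground median of each spot was used in place of its mean, 9 probes were beyond 1.5-fold, all of them among the 98. Acox3, a peroxisomal oxidase, shows the pattern: 1 array of mouse 2 read 5.48 and the other 5 read -0.26 to 0.27, which gave a mean of 0.91 ± 1.52. Ptbp3, a splicing regulator, had 4.32 on 1 array of mouse 2, and Ralgps2, an exchange factor for Ral, -3.89 on 1 array of mouse 1, while a dimmer probe of Ralgps2 had a mean ratio of 0.005.

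The median of the arrays was beyond 1.5-fold for 1 probe, which has no gene name and was singled out after its values were seen. It had 1.03, 0.31 and 0.45 in mice 1, 2 and 3 and a mean of 0.59 ± 0.38 (limma's adjusted p = 0.845). It was above 0 on 5 of 6 arrays, with 1.46, -0.27 and 0.68 where the mutant carried Cy3 and 0.60, 0.88 and 0.22 where it carried Cy5.

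The mutant mice were also compared with one another, since each was measured on a pair of arrays. No probe of 15608 (0%) differed among the 3 mice at a limma adjusted p under 0.05, and 96, or 0.615%, were at an unadjusted p under 0.05. This share lies far below 0.05, so the test was conservative here. Its fit had 1 dye term for all mice, so a dye effect that differed between mice counted as residual spread. The lack of calls therefore does not show that the mice were alike. Tra2b, a splicing factor, had the smallest p of the named genes and arrays that agreed within each mouse. It read 0.38 and 0.44 on the arrays of mouse 1, -0.25 and -0.70 on those of mouse 2 and 0.10 and 0.07 on those of mouse 3. Sap18, a corepressor subunit, was next, with means of 0.25, -1.33 and -0.27 in mice 1, 2 and 3. Its arrays agreed in mouse 1 (0.29 and 0.21) but read -0.37 and -2.30 in mouse 2 and 0.42 and -0.97 in mouse 3. C1s1, a complement protease, read -0.53 and -0.43 on the arrays of mouse 2, against 0.02 and -0.27 in mouse 1 and 0.01 and 0.33 in mouse 3. Cavin1, a coat protein of caveolae, had -0.50 and -0.93 in mouse 2. Of the probes beyond 2-fold in the mean of a mouse, 62, 106 and 127 in mice 1, 2 and 3, both arrays were beyond 2-fold in the same direction for 0, 1 and 0.

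The ratio in brain was set against the ratio in thymus, where the mutants were 4 and 3 of them had also given the brains. No probe of 5255 tested in both organs (0%) had a different ratio in brain and in thymus by limma, where the adjusted p was never below 0.688. An unadjusted p under 0.05 was reached by 365 probes. The mutants of brain and thymus were paired by animal for mice 1 to 3, and with the mouse as a replicate block no probe of 2571 passed either. The labels conflict in places here. For mice 3 and 4 the file names carry identifiers with digits exchanged, and the labels were followed. A thymus array of mouse 1 has brain as the tissue of both channels, but thymus in its title and in the name of its pool, and it was used as thymus. The thymus arrays were less well measured, with 9.32% to 72.4% of spots flagged.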

How the data were processed

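Per the file headers, the authors deposited spot intensity in a red and a green scan with local background and flags. The scanner's software is not given in the sources used here. A deposited value table of unstated scale and centring, named here a score, follows the log2 ratio of background-subtracted medians (r of at least 0.986 on each brain array), mutant over pool by the labels' dyes. Its column medians run from -0.73 to 0.74, and it served as an alternative after median centring.

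In limma 3.58.1 (statmod 1.5.0, R 4.3.3), foreground means were corrected by normexp (offset 50) and normalised by loess (span 0.3) without flagged spots (flag -50). Ratios were turned, spots of a probe averaged, then the arrays of a mouse. Detection required a foreground 2 background SDs above background in a channel. Mouse values were tested against 0 with lmFit and eBayes, Benjamini-Hochberg adjusted over all tested probes at 0.05, with n = 3 mice. Differences among mice used the 6 arrays with a dye term; organ intensities were quantile normalised. The procedure was tested on known changes put into the brain scanner values and into simulated ratios. For mutant over pool only the sign had to be right, so that check does not give the power to detect a change. Names came from a RefSeq table of GRCm38.p6, by accession (961 probes) or synonym (492), and 6312 spots carry no accession. Named genes are, among those of 1 sign in all mice and both dye orientations, the 12 highest and 12 lowest, the 12 smallest p among mice, the 4 highest and lowest dye effects and list extremes; each group is given by its leading members where it is long. Some list members are not reported here. Lists and rules were chosen with earlier results of these data known. For mice 1 to 3, deviations from the organ means correlated between organs at 0.007, -0.002 and -0.008.

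Alternatives covered background correction, foreground median, centring, print-tip loess, scaling, the filter on dim probes, flags, the authors' table, each dye orientation, a random block for the mouse, a robust fit, each mouse left out and, chosen after seeing the data, the median of the arrays.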

Additional observations from a re-analysis of the deposited data

Results flagged for a closer look

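Of 31 sets of 6 brain arrays examined for a value far from the rest, 5 held one, and chance alone marks about 1 set in 20. That rate does not hold for 24 of the 31 sets, which are genes chosen for high or low mean ratios, since 1 far array can bring a gene into that choice. The SD of the log2 ratios over probes was 0.218 on the array of mouse 1 with the mutant in Cy3, the lowest of the 6. For Tmod1 the array of mouse 1 with the mutant in Cy3 gave 1.37. For Cct5 the array of mouse 2 with the mutant in Cy3 gave 0.994. For Efnb1 the array of mouse 2 with the mutant in Cy3 gave 0.764. For Cep295nl the array of mouse 3 with the mutant in Cy5 gave -1.42.

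Among 51 followed genes measured in all mice of both organs, 5 had all 3 brain mice on one side of 0 and all 4 thymus mice on the other, or 9.8%. Over all 1747 probes tested in both organs with a value in every mouse, 66 did, or 3.78%. Some followed genes, Ccdc43 and Idh3g among them, had been chosen for 1 sign in all brain mice, so the shares are not comparable. Ccdc43 had a mean of -0.12 in brain and 0.20 in thymus, and Zkscan2, a zinc finger gene, -0.076 in brain and 0.096 in thymus. The opposite signs were seen for Idh3g, at 0.15 in brain and -0.16 in thymus, for Sncb, at 0.077 in brain and -0.19 in thymus, and for Ddx5, an RNA helicase, at 0.12 in brain and -0.040 in thymus. Tested as a difference between organs by limma over all probes, each had an adjusted p of 0.688.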

How the results depend on the processing

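The ratio of mutant over pool gave 0 called probes, with exceptions: 1 with foreground medians, an unnamed probe at -0.56, and 1 with only the arrays of the mutant in Cy5, MG-3-33j5. Leaving out a mouse gave 0 to 1, the 1 being MG-8-45k23 (-2.09) without mouse 2. At an unadjusted p under 0.05 the share of probes ran from 2.86% (460 of 16074, without mouse 1) to 12.9% (2285 of 17780, only arrays of the mutant in Cy5). Differences among mice gave 0 to 1 called probes with a mouse left out (1 without mouse 2) and 0 under the other 8 alternatives run on it. The dye effect changed most: 2 called probes became 1645 with median centring, 932 in the authors' table, 0 with background subtraction or detection on every array, 1 with print-tip loess or flagged spots kept, and 2 to 5 with a mouse left out, 5 without mouse 2. Brain minus thymus stayed at 0, also with the mouse as a replicate block. The organ check of intensity had 22 calls, 7 without background correction and 2 to 12 with a mouse left out (2 without mouse 3, 3 without mouse 2, 5 without mouse 1, 12 without mouse 4), both chosen after seeing the data. Probes beyond 1.5-fold numbered 98, and 9 with foreground medians to 354 with only arrays of the mutant in Cy5; the median of the arrays, also chosen after seeing the data, gave 1. The cause was not tested. Low signal over background and 3 mice limit all of these results.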
